A study of Mus musculus with 8 samples.

Results

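The *Hox* genes and the limb-type genes *Tbx4*, *Tbx5* and *Pitx1* were examined as 1 set of position genes in the arrays of Co and Pg mice. The members were matched by gene name. It holds 41 genes, of which 38 are *Hox* genes, out of 37074 gene names on the array. Every spot that carried 1 of these names and was not a control was used, which gave 54 of the 56605 probes. *Hox* genes encode homeodomain transcription factors and lie in 4 clusters, *Hoxa* to *Hoxd*. Their order along a cluster follows the order in which they are used along the body and the limb, from the anterior paralog groups to the posterior ones, and adult connective tissue, fat and muscle keep part of this positional pattern. *Tbx5* is a T-box factor of the forelimb, while *Tbx4* and the homeodomain factor *Pitx1* are factors of the hindlimb. The main brown fat depot of the mouse lies between the shoulder blades.

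Tissue came from C57BL/6J mice of 12 weeks of age, the strain and age of both groups. Co mice (n = 4) received 100 μL of saline by intravenous injection. Pg mice (n = 4) received the same volume with sonicated *P. gingivalis*, a bacterium of periodontal disease, at 100000000 CFU according to the methods, where the labels of the samples read 108 CFU. The tissue, labelled BAT, was taken 18 h later, and each mouse had its own Agilent one-color array. The comparison asked how *P. gingivalis* endotoxemia alters gene expression in that tissue. The model is thus 1 injection, 1 time point and 1 strain. All values below are log2 intensities after quantile normalization between the 8 arrays, and the levels of different probes are not comparable with each other. A probe was called well above background on an array when the scanner software marked it so. Bulk RNA cannot separate fewer cells of a type from less RNA per cell. The p-values measure the spread between these 8 samples.

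On Co arrays 34761 to 35831 probes were well above background, and on Pg arrays 31135 to 34066, without overlap. The 95th percentile of the negative control spots was also lower on Co arrays, at 3.23 to 3.92 intensity units, than on Pg arrays, at 4.66 to 15.9. The arrays shared 1 slide and 1 scan, with Co in row 1 and Pg in row 2, so that slide position and group cannot be told apart. Of 20 brown adipocyte genes, 14 were well above background on all 8 arrays, and *Ucp1*, the uncoupling protein that defines brown adipocytes, was on none, at 2.09 to 2.26. *Elovl3*, *Bmp8b* and *Slc27a2* were on none either. All 20 skeletal muscle genes were well above background on all 8 arrays, with summed signals of 3888090 to 4179380 in Co mice and 3743970 to 4041470 in Pg mice. The summed signals of the brown adipocyte genes were 511307 to 563060 in Co mice and 549992 to 600434 in Pg mice. Of these sums, 88.2% to 91.0% came from *Cox7a1* and *Cox8b*, respiratory chain genes that striated muscle also expresses, and without them the sums were 56860 to 62790 in Co mice and 49386 to 59476 in Pg mice. *Ucp1* has 1 probe on the array, and by that probe the defining marker of the labelled tissue was not measured, while *Cidea*, another brown adipocyte marker, was well above background on all 8 arrays. The tissue is called the labelled BAT here. The part of muscle RNA in the *Hox* results was not tested.

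Most position genes were measured in this tissue. Of the 41 genes, 26 had a probe well above background on all 8 arrays, 2 on 6 or 7 arrays, 5 on 1 to 3 arrays and 8 on none. Counted by probe, 33 of 54 were well above background on all 8 arrays, compared with 51.6% of all probes on the array. Each Co array showed 29 or 30 of the genes and each Pg array 27 or 28, the same order as for the array as a whole. By the scanner mark, the middle of the clusters was the most complete. All members of paralog groups 4, 5, 6 and 7 were well above background on all 8 arrays, whereas no member of groups 1, 12 and 13 was. By region, these were 7 of 11 anterior genes (groups 1 to 4), 10 of 11 central genes (groups 5 to 8) and 7 of 16 posterior genes (groups 9 to 13). Groups 4 to 6 were not complete under a stricter mark, the 99th percentile of the negative controls of each array, under which 2 of 4 genes of group 4, 0 of 3 of group 5, 2 of 3 of group 6, 2 of 2 of group 7 and 2 of 3 of group 8 were above background on all 8 arrays, compared with 3 of 4 of group 9, 2 of 3 of group 10 and 2 of 3 of group 11. The genes of groups 4 to 6 that dropped out were above that percentile on 4 Co arrays and on 0 to 3 Pg arrays. The percentile itself was higher on Pg arrays, at 97.0 to 158 intensity units, than on Co arrays, at 13.1 to 22.8, so that a gene had to be brighter on a Pg array to pass.

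**Figure D1:**
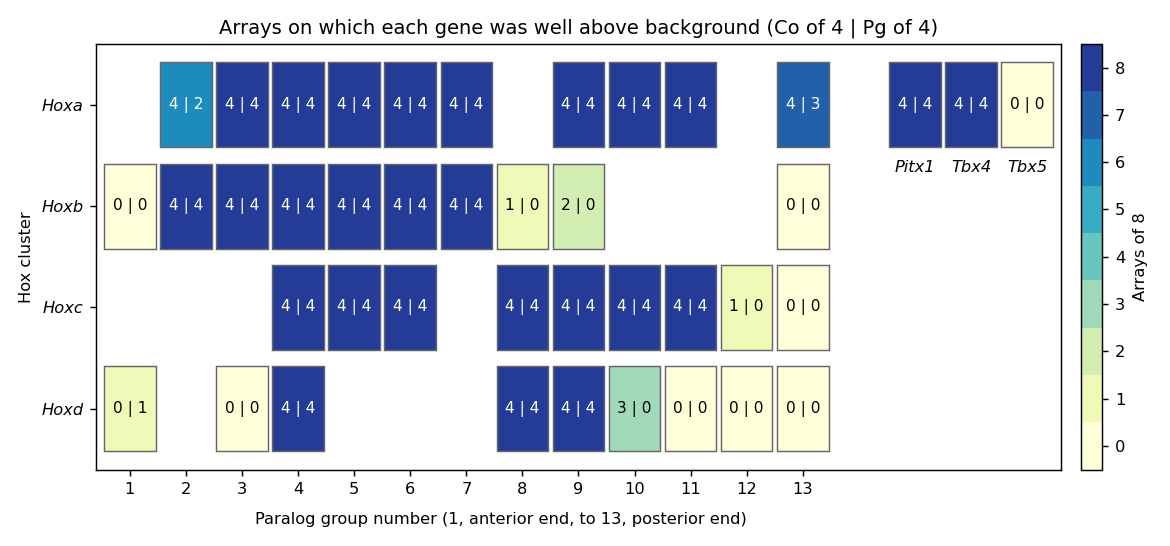
The map places each *Hox* gene by cluster (vertical axis) and paralog group (horizontal axis), with *Pitx1*, *Tbx4* and *Tbx5* at the right, and color gives the number of arrays of 8 on which the gene was well above background, with the number of Co arrays and then of Pg arrays in each box. Groups 4 to 7 show 4 Co and 4 Pg arrays for every gene, while *Hoxd* has 3 such genes and *Tbx5* shows 0 in both groups.

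The 4 clusters differed in how far detection reached. In *Hoxa*, 8 of 10 genes were well above background on all 8 arrays, from *Hoxa3* to *Hoxa11*. The remaining ones were the anterior gene *Hoxa2*, on 4 Co and 2 Pg arrays, and the most posterior gene *Hoxa13*, on 4 Co and 3 Pg arrays. In *Hoxc*, 7 of 9 genes, *Hoxc4* to *Hoxc11*, were well above background on all 8 arrays, *Hoxc13* was on none, and *Hoxc12* was on 1 Co array. In *Hoxb*, the 6 genes from *Hoxb2* to *Hoxb7* were on all 8 arrays, but *Hoxb8* reached 1 Co array, *Hoxb9* 2 Co arrays, and *Hoxb1* and *Hoxb13* none. In *Hoxd*, only *Hoxd4*, *Hoxd8* and *Hoxd9* of 9 genes were on all 8 arrays, *Hoxd10* was on 3 Co arrays and no Pg array, *Hoxd1* on 1 Pg array, and *Hoxd3*, *Hoxd11*, *Hoxd12* and *Hoxd13* on none. These counts depend on the mark used. Under the 99th percentile of the negative controls, 18 genes were above background on all 8 arrays, and under the less strict mark of the scanner software 31 were, with 3 on none.

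Toward the posterior end of *Hoxd*, detection on all 8 arrays ended between *Hoxd9* and *Hoxd10* by the scanner mark, but under the less strict mark *Hoxd10* was on 4 Co and 4 Pg arrays. *Hoxd9* was measured by a probe at chr2:74537676-74537735 (mm9, the build of the array), with log2 signals of 7.49, 7.70, 7.71 and 7.39 in Co mice and 6.88, 7.07, 7.99 and 7.72 in Pg mice. The probe of *Hoxd10*, at chr2:74532280-74532339 of the same build, gave 3.81, 4.19, 4.37 and 4.62 in Co mice and 3.37, 3.32, 4.06 and 3.17 in Pg mice. Its first Co value and all 4 Pg values were not well above background, and the groups overlapped. *Hoxd10* was not tested, and no fold change is given for it. *Hoxd11* lay at 2.03 to 2.51 in Co mice and at 2.04 to 4.60 in Pg mice, *Hoxd12* at 1.95 to 2.03 over the 8 arrays and *Hoxd13* at 2.12 to 2.84, all not well above background.

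The 250 bases before the start sites of *Hoxd9* and *Hoxd10* are shown because these neighbors differed by the scanner mark, and those of *Tbx4* because it is a hindlimb gene well above background on all 8 arrays. The sequences are from RefSeq (GRCm38.p6) and are written 5′ to 3′ on the strand of the gene, the plus strand for all of them, with CG in capitals. They span chr2:74697513-74697762, chr2:74691641-74691890 and chr11:85896515-85896764.
Hoxd9: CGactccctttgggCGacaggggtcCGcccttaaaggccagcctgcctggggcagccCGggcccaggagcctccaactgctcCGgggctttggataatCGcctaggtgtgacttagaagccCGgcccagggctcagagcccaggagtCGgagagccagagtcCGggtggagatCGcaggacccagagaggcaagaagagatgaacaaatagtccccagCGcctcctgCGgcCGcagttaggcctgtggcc
Hoxd10: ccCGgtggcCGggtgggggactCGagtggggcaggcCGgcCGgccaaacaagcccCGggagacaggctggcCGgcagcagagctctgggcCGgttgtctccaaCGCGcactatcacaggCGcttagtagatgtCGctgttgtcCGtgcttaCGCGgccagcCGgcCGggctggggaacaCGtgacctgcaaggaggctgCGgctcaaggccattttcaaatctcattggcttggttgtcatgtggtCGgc
Tbx4: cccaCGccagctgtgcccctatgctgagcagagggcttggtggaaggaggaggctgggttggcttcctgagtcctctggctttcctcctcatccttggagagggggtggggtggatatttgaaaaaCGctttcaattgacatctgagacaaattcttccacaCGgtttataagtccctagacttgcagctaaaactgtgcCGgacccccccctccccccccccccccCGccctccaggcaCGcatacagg

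*Hoxd9* had 13 CG in this window, *Hoxd10* had 20 and *Tbx4* had 6. Among all 32851 promoter entries, 31.5% held at least as many as *Hoxd9*, 17.9% as many as *Hoxd10* and 50.4% as many as *Tbx4*. RefSeq gave 25 promoter entries for 23 of the 41 genes, and their median was 12 CG compared with 6 over all entries. The median was 10.5 over the 16 entries of tested genes and 12 over the 9 entries of the genes that were not tested. The motif TATAAA, searched on both strands, was found in 5 of the 25 entries (20%) and in 12.4% of all. *Hoxa10*, *Hoxb8*, *Hoxd4*, *Hoxd13* and *Tbx4* held it. A match is a description of these letters only.

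In *Hoxa* and *Hoxc*, the tested posterior genes were those of groups 9 to 11 and *Hoxa13*, and none of them had a q under 0.1 between Co and Pg mice. *Hoxa9*, a gene of the trunk and proximal limb, gave 7.53, 7.71, 8.35 and 7.75 in Co mice and 7.56, 7.68, 7.66 and 7.68 in Pg mice. The groups overlapped, with 1 high Co array, and the log2 fold change of Pg against Co was -0.19 (SE 0.16, limma FDR q = 0.53), or -0.02 without that array, Co replicate 3, and -0.29 without Co replicate 1. *Hoxa10*, a gene of the lower trunk and upper limb, gave 10.86, 11.03, 11.05 and 11.02 in Co mice and 10.92, 11.06, 11.18 and 11.01 in Pg mice. Its groups also overlapped, and the log2 fold change was 0.05 (SE 0.07, limma FDR q = 0.72), or 0.01 without Co replicate 1 or Pg replicate 3, 0.09 without Pg replicate 1, and -0.12 in the authors' values. *Hoxa11*, a gene of the middle limb segment, gave 8.34, 8.59, 8.47 and 8.46 in Co mice and 8.56, 8.49, 8.07 and 8.29 in Pg mice. Here 2 Pg arrays lay under the Co range, with a log2 fold change of -0.11 (SE 0.11, limma FDR q = 0.596), or -0.02 without Pg replicate 3, -0.07 without Co replicate 2 and -0.18 without Pg replicate 1. *Hoxa13*, a gene of the hand and foot and of the hindgut, gave 5.47, 5.11, 5.12 and 5.03 in Co mice and 4.88, 5.27, 4.68 and 4.45 in Pg mice, the value of 4.68 not being well above background. Only 1 Pg array lay within the Co range, and the log2 fold change was -0.36 (SE 0.18, limma FDR q = 0.276). It was smaller with normexp, at -0.09, with the median signal, at -0.08, and in the authors' values, at -0.10, and was -0.24 without Pg replicate 4.

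In *Hoxc*, the ranges of the groups overlapped for each of the 3 posterior genes tested. *Hoxc9*, a gene of the thoracic region, gave 11.50, 11.70, 11.62 and 11.86 in Co mice and 11.67, 11.76, 11.81 and 11.95 in Pg mice. The highest array was from a Pg mouse and the lowest from a Co mouse, and the log2 fold change was 0.13 (SE 0.09, limma FDR q = 0.455), or 0.07 without Co replicate 1, 0.08 without Pg replicate 4 and 0.19 without Co replicate 4. *Hoxc10*, a gene of the lumbar region and the hindlimb, gave 10.91, 11.07, 11.17 and 11.20 in Co mice and 10.65, 10.77, 11.03 and 11.07 in Pg mice. Of the Pg arrays, 2 lay under the Co range, with a log2 fold change of -0.20 (SE 0.11, limma FDR q = 0.325), or -0.13 without Pg replicate 1. *Hoxc11*, also a gene of the hindlimb, gave 10.16, 9.85, 9.82 and 10.23 in Co mice and 10.33, 10.02, 10.15 and 10.20 in Pg mice. The highest array was again from a Pg mouse and the lowest from a Co mouse, with a log2 fold change of 0.16 (SE 0.12, limma FDR q = 0.448), or 0.10 without Co replicate 3 and 0.11 without Co replicate 2. *Hoxd9*, given above, had a log2 fold change of -0.15 (SE 0.24, limma FDR q = 0.74), which became -0.35 without Pg replicate 3, -0.26 without Pg replicate 4, -0.04 without Pg replicate 2 and 0.02 without Pg replicate 1. The 95% confidence intervals of these 8 posterior genes lay between -0.78, the lower limit for *Hoxa13*, and 0.43, the upper limit for *Hoxc11*, on the log2 scale.

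The hindlimb factors were well above background on all 8 arrays, and the forelimb factor was on none. Under the 99th percentile of the negative controls, *Pitx1* was on 4 Co arrays and no Pg array, while *Tbx4* stayed on all 8. That percentile was several times higher on Pg arrays, as given above. The *Tbx4* probe, at chr11:85729510-85729569 (mm9), gave 9.11, 8.75, 8.85 and 8.98 in Co mice and 8.76, 9.02, 8.90 and 8.93 in Pg mice. All Pg arrays lay within the Co range, and the log2 fold change was -0.02 with a 95% confidence interval of -0.23 to 0.20 (limma FDR q = 0.926). *Pitx1*, at chr13:55926417-55926476, gave 5.36, 5.06, 5.85 and 5.91 in Co mice and 5.82, 6.04, 5.75 and 5.72 in Pg mice. The Co arrays were the more spread, and the log2 fold change was 0.29 (SE 0.19, limma FDR q = 0.408), or 0.13 without Co replicate 2 and 0.14 with the median signal. *Tbx5*, at chr5:120334087-120334146, gave 2.48, 2.85, 3.04 and 2.77 in Co mice and 1.97, 1.92, 1.92 and 1.92 in Pg mice. None of these values was well above background, so that *Tbx5* has no fold change here, and its probe was not tested. Above the 95th percentile of the negative controls, a lower limit, *Tbx5* was on 4 Co arrays and no Pg array.

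**Figure D2:**
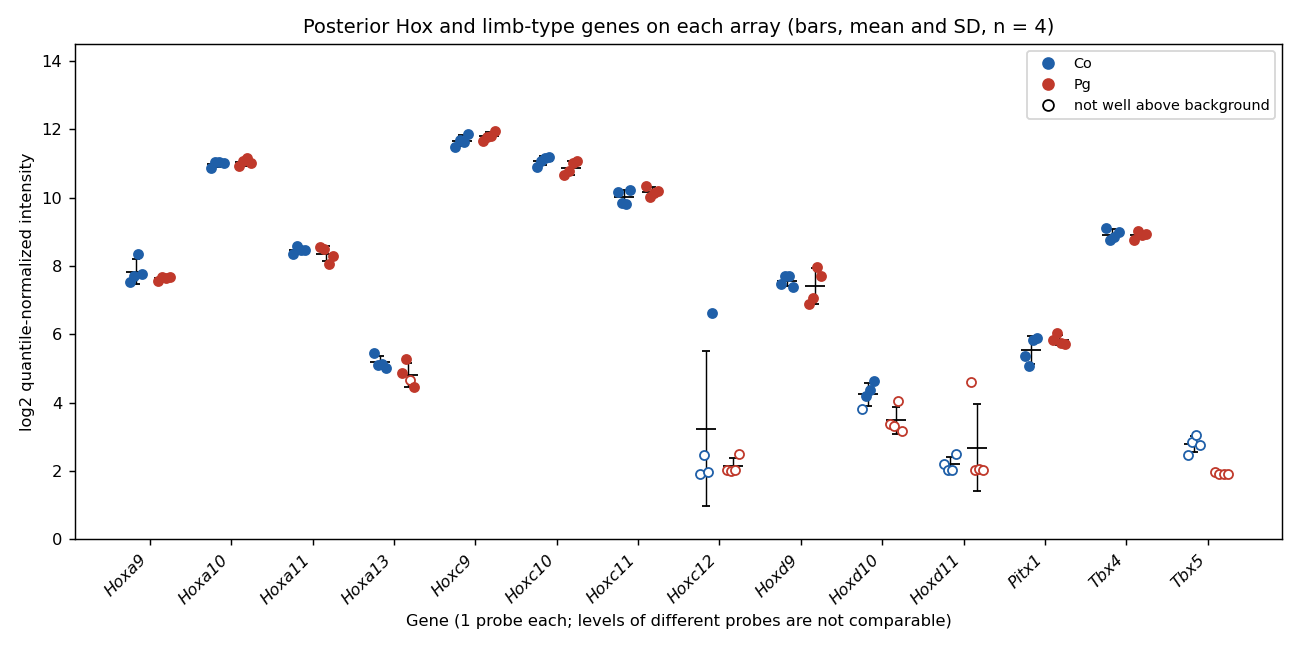
Log2 quantile-normalized intensity (vertical axis) on each array for posterior *Hox* genes and the limb-type genes (horizontal axis), with Co arrays in blue and Pg arrays in red, open circles where the probe was not well above background, and bars for the mean and SD of 4 arrays. *Hoxa9* to *Hoxa11*, *Hoxc9* to *Hoxc11*, *Hoxd9*, *Pitx1* and *Tbx4* are filled on all 8 arrays, whereas *Tbx5* is open on all 8, and the groups overlap for each tested gene shown.

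Among the position genes, 37 probes of 28 genes met the filter of being well above background on 4 or more arrays and were tested. A probe was called when its FDR q was under 0.1 and its fold change exceeded 1.5. Of the 37 probes, 1 was called, compared with 1.61% of the 33820 probes tested (0.313% higher and 1.3% lower in Pg mice). Without the fold change limit, 2 member probes had a q under 0.1, compared with 7.82% of all. An unadjusted p under 0.05 was seen for 8 member probes, 2 higher and 6 lower in Pg mice, which is 21.6% compared with 22.8% of all (6.86% higher and 16% lower). The groups did not overlap for 4 member probes, 10.8% compared with 15.8% of all. Of the 6 lower probes, those of *Hoxa2* and *Hoxa3* and a dim one of *Hoxa9* passed the filter with all Co arrays and 1 or 2 Pg arrays. Those of *Hoxa2* and *Hoxa3* are also among the 4 without overlap. The median log2 fold change was -0.02 over the member probes and -0.04 over all probes tested, and 16 member probes were above 0 and 21 below, where 42.3% of all probes were above 0. With 1 probe for each gene, 15 of 28 genes were above 0 and 13 below, none was called, 1 had a q under 0.1 and 4 had an unadjusted p under 0.05, 2 in each direction.

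**Figure D3:**
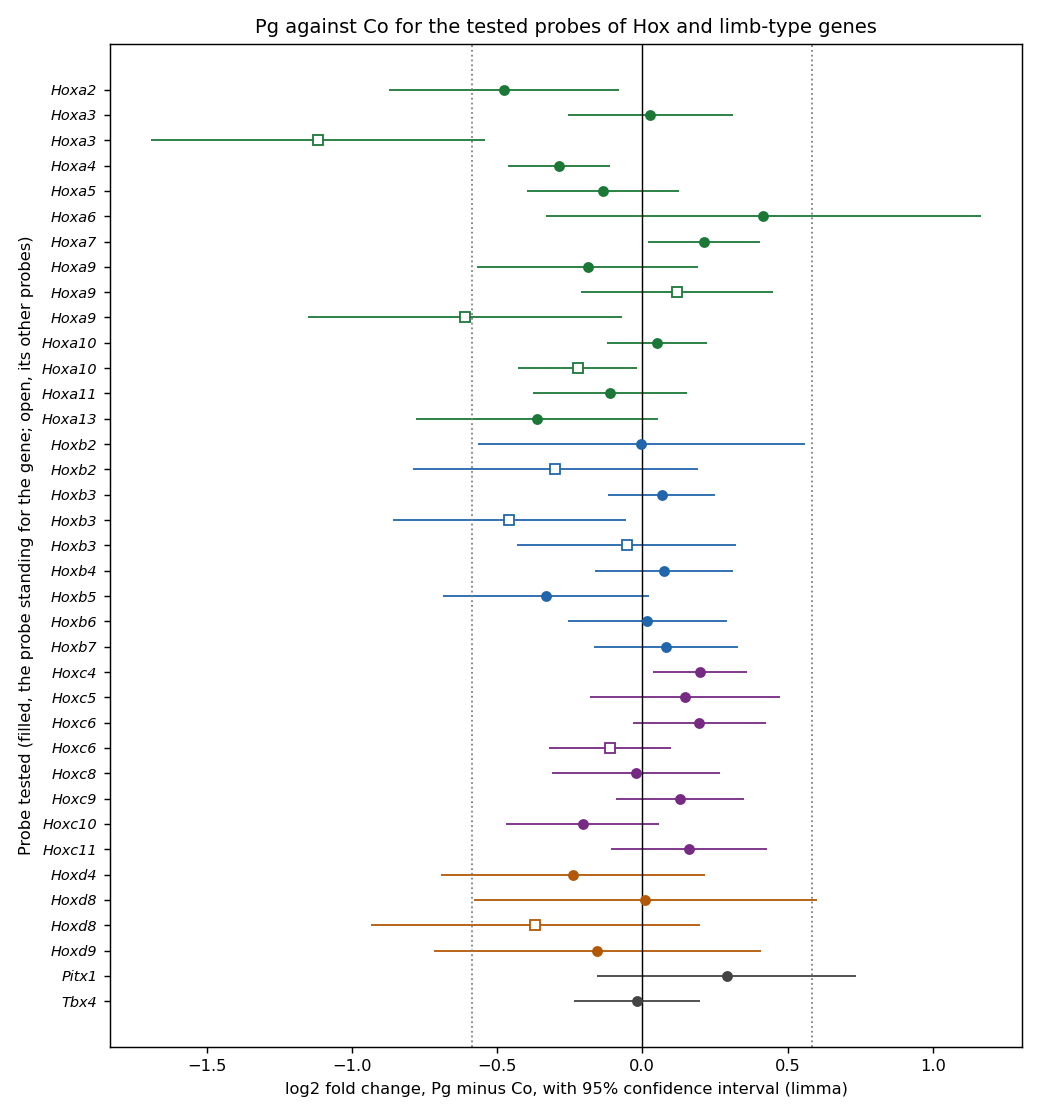
Log2 fold change of Pg against Co (horizontal axis) with its 95% confidence interval from limma for the 37 tested probes, ordered by cluster and paralog group (vertical axis), with filled circles for the probe standing for the gene, open squares for its other probes, and dotted lines at a fold change of 1.5. The point estimates run from -1.12 for a probe of *Hoxa3* to 0.42 for *Hoxa6*, and the probe of *Hoxa3* and 1 of *Hoxa9* are the ones beyond a dotted line.

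The probe with both criteria belonged to *Hoxa3*, a gene of the neck and pharyngeal region. This probe, at chr6:52119744-52119803 (mm9), gave 4.77, 5.56, 5.48 and 5.39 in Co mice and 3.57, 4.28, 4.30 and 4.58 in Pg mice. The groups did not overlap, but it was well above background on only 1 Pg array, that of 4.58, so that it passed the filter through the Co arrays and the Pg mean rests on 3 values not well above background. The log2 fold change was -1.12 (SE 0.25, limma FDR q = 0.0659). A brighter probe of *Hoxa3*, at chr6:52119087-52119146, stood in contrast, at 8.21, 8.40, 8.46 and 8.70 in Co mice and 8.39, 8.33, 8.71 and 8.45 in Pg mice. All but 1 of its Pg values lay within the Co range, with a log2 fold change of 0.03 (SE 0.12, limma FDR q = 0.911). The remaining probe named *Hoxa3* is at chr6:52149150-52149208, between the probes of *Hoxa4* and *Hoxa5*. It has no RefSeq accession, so that its source is uncertain. This probe lay at 3.94 to 4.61 in Co mice and at 2.24 to 3.67 in Pg mice, well above background on 2 Co arrays and no Pg array. Its groups did not overlap, with Pg arrays lower. The Co mean, at 4.26, was 1.08-fold the mean of the lowest levels well above background on the Pg arrays. On Pg replicate 3 that level was 4.36, above the Co mean, so that no lower limit of the fold change is given. The probe missed the filter on dim probes, and with that filter at 1 array it was called (limma FDR q = 0.0961). Both dim probes were thus lower in Pg mice, with 7 of their 8 Pg values not well above background, and the bright probe was not, so that no direction is given for *Hoxa3* itself. The call of the tested dim probe was lost without Co replicate 2 (q = 0.144), Co replicate 3 (q = 0.141), Co replicate 4 (q = 0.124), Pg replicate 1 (q = 0.106) or Pg replicate 2 (q = 0.121), and also without normalization between arrays (q = 0.151) and in the authors' values, where the log2 fold change was -0.23 (q = 0.233). With limma's normexp background correction the log2 fold change was -0.31 (q = 0.0544), under the fold change limit.

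*Hoxa4*, a gene of the cervical region, was the other member with a q under 0.1. Its probe, at chr6:52140287-52140346 (mm9), gave 8.06, 8.01, 8.16 and 8.16 in Co mice and 7.68, 7.83, 7.77 and 7.96 in Pg mice. Every Pg array was under every Co array, and the log2 fold change was -0.29 (SE 0.08, limma FDR q = 0.0873), which is under the fold change limit. Its direction was the same in all alternatives run, with log2 fold changes of -0.34 to -0.24 when 1 array was left out, but the q was under 0.1 in 1 of those 8 fits, the one without Pg replicate 4 (q = 0.0976). *Hoxa2*, a gene of the hindbrain and the second pharyngeal arch, gave 5.34, 5.42, 5.24 and 5.16 in Co mice and 4.75, 4.33, 5.15 and 5.01 in Pg mice, the first pair of Pg values being not well above background. The probe passed the filter through its 4 Co arrays, since only 2 Pg arrays were well above background. Its groups did not overlap, with Pg arrays lower, and the log2 fold change was -0.48 (SE 0.17, limma FDR q = 0.158). It was -0.15 with normexp, -0.19 with the median signal, -0.26 in the authors' values and -0.32 without Pg replicate 2.

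In the other clusters, the members with the smallest p-values stayed outside the threshold. *Hoxc4*, a gene of the cervical region and the forelimb level, gave 9.46, 9.68, 9.50 and 9.60 in Co mice and 9.67, 9.74, 9.84 and 9.79 in Pg mice. The lowest Pg array was just under the highest Co array, and the log2 fold change was 0.20 (SE 0.07, limma FDR q = 0.151). *Hoxc6*, a gene of the upper thoracic region, gave 9.80, 9.90, 10.25 and 9.89 in Co mice and 10.16, 10.15, 10.19 and 10.12 in Pg mice. One Co array was above all Pg arrays, and the log2 fold change was 0.20 (SE 0.10, limma FDR q = 0.284), while a second *Hoxc6* probe was at -0.11. *Hoxb5*, a gene of the cervical and forelimb level, gave 5.89, 6.15, 6.26 and 6.37 in Co mice and 5.82, 5.54, 6.18 and 5.80 in Pg mice. Of the Pg arrays, 3 were under all Co arrays, and the log2 fold change was -0.33 (SE 0.15, limma FDR q = 0.246), or -0.12 with the median signal and -0.17 in the authors' values.

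*Hoxb3*, a gene of the hindbrain and neck, gave 8.20, 8.09, 7.95 and 8.05 in Co mice and 8.17, 8.20, 7.97 and 8.20 in Pg mice. The ranges were nearly the same, with a log2 fold change of 0.07 (SE 0.08, limma FDR q = 0.653), or 0.03 without Co replicate 3, 0.12 without Pg replicate 3 and 0.14 without normalization, and the sign turned to -0.09 in the authors' normalized values. *Hoxd4*, a gene of the hindbrain and neck as well, gave 7.72, 7.08, 7.08 and 7.01 in Co mice and 6.63, 7.06, 7.31 and 6.95 in Pg mice. Here 1 Co array lay above all others, and the log2 fold change was -0.24 (SE 0.20, limma FDR q = 0.506), or -0.07 without that array, Co replicate 1, and -0.12 without Pg replicate 1. The 6 tested *Hoxb* genes ranged in log2 fold change from -0.33 to 0.08 and the 7 tested *Hoxc* genes from -0.20 to 0.20, with no q under 0.1 in either cluster. *Hoxa6* gave 5.57, 5.71, 5.74 and 5.23 in Co mice and 6.92, 5.65, 6.03 and 5.31 in Pg mice, with Pg replicate 1 above all other arrays. Of the 10 tested central genes, *Hoxa6* had the largest positive log2 fold change of the members, 0.42 (limma FDR q = 0.481), and *Hoxa7*, at 0.21, had the smallest q (limma FDR q = 0.185). *Hoxc5* was at 0.15, *Hoxa5* at -0.13, *Hoxb7* at 0.08, *Hoxc8* at -0.02, *Hoxb6* at 0.02 and *Hoxd8* at 0.01, beside *Hoxb5* and *Hoxc6* above.

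Different probes of 1 gene often differed, in direction or in size. *Hoxa9* had other probes at 0.12 and -0.61, the latter well above background on 6 arrays. *Hoxa10* had a second probe at -0.22 whose groups did not overlap (limma FDR q = 0.19). *Hoxd8* had a second probe at -0.37. The brightest *Hoxb2* probe, at -0.0041, lies on the strand opposite to the gene, and the *Hoxb2* probe on the strand of the gene was at -0.30. *Hoxb3* had another probe at -0.46 (limma FDR q = 0.172), whose accession list also names *Hoxd3*, so that its source is uncertain. Between probes of different members, no pair of 1415 shared more than 12 bases in a row of the 60 bases of a probe, and the RefSeq accessions of 48 of the 54 probes could be matched by name. Probes without a RefSeq accession included the *Hoxa9* probe at -0.61, the *Hoxb2* probe on the opposite strand and the second *Hoxc6* probe. The source of these probes is uncertain as well.

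The share of probes lower in Pg mice differed with brightness. Among the member probes with a mean log2 intensity under 6, 8 of 10 were lower in Pg mice, and the counts were 7 of 10 between 6 and 8, 5 of 9 between 8 and 10, and 1 of 8 over 10. Over all tested probes, 64.6%, 62.5%, 55.7% and 49.6% were lower in Pg mice in the same bins. The share called fell in the same order, from 4.39% to 1.59%, 0.446% and 0.194%. These bins were chosen after seeing the data. Of the 10 dim member probes, 4 were lower in Pg mice and passed the filter with all Co arrays and 1 to 3 Pg arrays, and a *Hoxb2* probe counted as lower had a log2 fold change of -0.0041. Over probes well above background on all 8 arrays, the lowest bin had 4 of 6 member probes and 62.6% of all probes lower, a count also added after seeing the data. The *Hoxa3* probe that was called lay in the dimmest bin and *Hoxa4* in the next one. The part of the higher negative control signals on Pg arrays in this pattern was not tested.

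**Figure D4:**
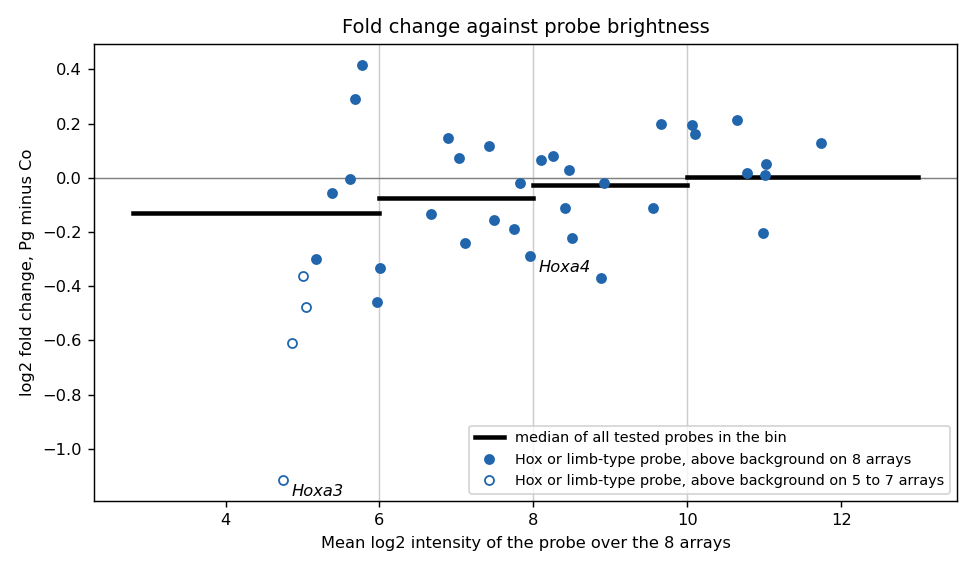
Log2 fold change of Pg against Co (vertical axis) against the mean log2 intensity over 8 arrays (horizontal axis) for the 37 tested probes of position genes, with open circles for those above background on 5 to 7 arrays and black lines for the median of all tested probes in each bin. Below 6, 8 of 10 points lie under 0, and above 10, 1 of 8 does, while the black lines run from -0.13 to 0.00.

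None of the partners and regulators of *Hox* genes was called. Of 9 *Hox* cofactors, the TALE homeodomain proteins that bind DNA together with Hox proteins, 7 were tested, 3 higher and 4 lower in Pg mice, with none called and 2 with a q under 0.1, compared with 1.61% and 7.82% of all probes tested, of which 42.3% were above 0. *Meis1* gave 9.11, 8.90, 9.29 and 9.07 in Co mice and 9.52, 9.54, 9.42 and 9.42 in Pg mice. Every Pg array was higher, with a log2 fold change of 0.38 (SE 0.09, limma FDR q = 0.0698). The other of the 2 was *Pknox1* at -0.29 (limma FDR q = 0.0734). Of 26 Polycomb and Trithorax group genes and other chromatin regulators of the clusters, all were tested, 11 higher and 15 lower, with none called and 1 with a q under 0.1 (3.85%, compared with 7.82% of all). *Pcgf2*, a Polycomb repressive complex gene, had the smallest p, at -0.46 (limma FDR q = 0.0999), and was well above background on 4 Co and 3 Pg arrays. When 1 array was left out, *Meis1* kept a q under 0.1 in 1 of 8 fits, the one without Pg replicate 3 (q = 0.0912), *Pknox1* in none (q = 0.105 to 0.155) and *Pcgf2* in the one without Pg replicate 3 (q = 0.0955), with no change of sign. For *Pcgf2*, the log2 fold change was -0.16 with normexp (q = 0.131), -0.23 with the median signal (q = 0.107) and -0.28 in the authors' values (q = 0.139).

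Noncoding and flanking genes of the clusters were measured as well. Of 16 on the array, 13 were well above background on all 8 arrays, and 14 were tested, 4 higher and 10 lower, with none called and none with a q under 0.1 (in the same limma fit, 3 had an unadjusted p under 0.05, which is 21.4% compared with 22.8% of all). *Hoxa11os*, on the strand opposite to *Hoxa11*, lay between 9.24 and 9.63 over the 8 arrays, with a log2 fold change of 0.08. *Evx2*, the gene beyond the posterior end of *Hoxd*, was well above background on all 8 arrays, at 7.89 to 8.25, although *Hoxd11* to *Hoxd13* beside it were on none, and *Evx1* beyond *Hoxa13* was on none. The smallest p belonged to *Hottip*, a noncoding RNA beyond *Hoxa13*, at -0.41 (limma FDR q = 0.118), and its groups did not overlap. Of 32 other limb patterning genes, 25 were tested, 10 higher and 15 lower, with none called and 1 with a q under 0.1 (4%, compared with 7.82% of all). *Tbx15*, a T-box gene of limb, muscle and fat development, gave 12.61, 12.52, 12.60 and 12.64 in Co mice and 12.11, 12.25, 12.32 and 12.42 in Pg mice. Every Pg array was lower, with a log2 fold change of -0.32 (SE 0.08, limma FDR q = 0.0743), and it was the gene of that list with a q under 0.1. It kept a q under 0.1 without Pg replicate 3 (q = 0.0959) or Pg replicate 4 (q = 0.092) but not without any other array. The median log2 fold changes were -0.02 for the cofactors, -0.02 for the chromatin regulators, -0.08 for the noncoding and flanking genes and -0.04 for the limb patterning genes, compared with -0.04 over all probes tested.

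Markers of other cell types are given because the position genes can come from any cell of the tissue. All 14 white and general adipocyte genes and all 12 fibroblast and connective tissue genes were well above background on all 8 arrays, as were 8 of 9 satellite cell genes, without *Myf5*, and 9 of 12 Schwann and neuronal genes, where *Mnx1* and *Nefl* were on none. None of these lists, and neither the muscle nor the brown adipocyte list, held a called gene, where 1.61% of all tested probes were called. Among the muscle genes, 17 of 20 were lower in Pg mice, where 49.6% of all tested probes with a mean over 10 were lower. All 20 had a mean over 10. The genes counted as lower included *Ttn* at -0.0027, *Mylpf* at -0.0038 and *Tnni2* at -0.0082, and of the 3 counted as higher, *Tnnt3* was at 0.0082. The smallest p was that of *Atp2a1*, the calcium pump of fast muscle, at a log2 fold change of -0.44 (limma FDR q = 0.0411, and 0.106 without Co replicate 3). The summed signals of the fibroblast genes were 105885 to 152841 in Co mice and 112309 to 151555 in Pg mice, and those of the white and general adipocyte genes 303310 to 334003 and 286547 to 326131. The satellite cell genes summed to 5654 to 6501 in Co mice and 5386 to 6314 in Pg mice, and the Schwann and neuronal genes to 27009.5 to 31818.4 and 29625.6 to 30802.3. The ranges of the groups overlapped for every marker list. Quantile normalization gives every array the same set of values, which holds sums carried by the brightest genes close between arrays. *Tnnt3* and *Tnni2* were at 18.81 or 18.84 on every array, while *Myh4* ran from 11.38 on Pg replicate 1 to 17.07 on Pg replicate 2. The overlap of the muscle sums therefore cannot show whether muscle content was alike. The part of these cell types in the levels of the position genes was not tested.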

How the data were processed

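Total RNA of tissue labelled BAT from 4 Co mice and 4 Pg mice was hybridized to Agilent one-color arrays, 1 array per mouse. The authors deposited the output of Agilent Feature Extraction 11.0.1.1 for each array, in which the processed intensity of a spot is background-subtracted and detrended, with surrogates for low values and no normalization between arrays. Each spot also carries marks, as deposited, for being well above background, positive and significant, saturated or a population outlier. A table of log2 values that the authors quantile-normalized and tested with limma 3.40.6 was used as an alternative. Its fold change, p-value and q-value columns hold the comparison of Pg and Co mice and were not used.

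Control spots and population outliers (90 to 150 spots per array) were left out, the spots of a probe were averaged, and log2 was taken of the quantile-normalized processed intensities after values under a floor of 1 had been set to it. A filter kept 33820 of the 56605 probes, those well above background on 4 or more of the 8 arrays, for lmFit and eBayes of limma 3.58.1 (R 4.3.3), two-sided, with Benjamini-Hochberg adjustment over all of them. The limma fit and the calling limits were tested on simulated data drawn around the normalized values, without a difference in background between groups. The steps before the fit were not tested in this way. No member spot was saturated. Precision is limited by the 4 arrays of each group. That the samples are separate mice is known from the labels alone.

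A gene with several tested probes was represented by the one with the highest mean. Values on every array were given for *Pitx1*, *Tbx4* and *Tbx5*, for the tested members of paralog groups 9 to 13, for the 2 members of each cluster with the smallest p, and for called members. *Hoxd10* was added after its values were seen. Other lists were described by counts and by their gene with the smallest p or their markers. *Evx1*, *Evx2*, *Hoxa11os* and *Pknox1*, the central *Hox* genes and single marker genes also lie outside this rule. The members and the lists were chosen with earlier results of these data known. Probe positions are those of the array files (mm9), and no annotation of that build was used here. Promoter sequences and accession names came from RefSeq (GRCm38.p6), and positions of the 2 builds were not combined. Alternatives were other background corrections, scalings, filters, floors and background marks, the authors' values, the replicate number as a block, and each array left out.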

Additional observations from a re-analysis of the deposited data

Results flagged for a closer look

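In 7 of the 63 groups of 4 arrays that were checked, 1 array lay far from the other 3 relative to the range of the group. Chance alone sets about 1 in 20 groups apart in this way. For *Hoxc12*, Co replicate 4 was at 6.63 and the other Co arrays were at 1.93 to 2.46, and for *Hoxd1*, Pg replicate 2 was at 7.45 against 2.03 to 2.06 on the remaining Pg arrays. These single arrays were the only ones on which *Hoxc12* and *Hoxd1* were well above background, and neither gene was tested.

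For *Hoxd4*, Co replicate 1 was at 7.72 against 7.01 to 7.08 on the other Co arrays. For *Hoxa7*, Co replicate 3 was at 10.76 against 10.46 to 10.48. Pg replicate 3 stood apart for *Hoxb3*, at 7.97 against 8.17 to 8.20, and for *Hoxb4*, at 7.33 against 6.96 to 7.01. For *Hoxa9*, Pg replicate 1 was at 7.56 against 7.66 to 7.68.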

How the results depend on the processing

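The count of called member probes was 1 in the reported fit. It was 0 with normexp, with the median signal, without normalization, with probes above background on all 8 arrays, and with the authors' values, 2 with no filter on dim probes, and 0 to 1 when 1 array was left out. The *Hoxa3* probe itself was not called with the filter at 1 array (q = 0.106) or with no filter (q = 0.111). A different probe named *Hoxa3*, of uncertain source, was called there, and with no filter so was *Tbx5* (q = 0.0619), which was well above background on no array. The count of member probes with a q under 0.1 was 2, and it was 1 with scaling to the 75th percentile, with the filters at all 8 arrays and at 1 array and with the authors' values, 0 without normalization, and 0 to 2 when 1 array was left out. Replicate numbers did not pair the samples (correlations of same-numbered samples 0.06, -0.03, -0.07 and 0.18), and with the replicate block 0 member probes were called and 0 had a q under 0.1. Genes well above background on no array numbered 8, and 4 under the 95th percentile of the negative controls and 3 under the mark for positive and significant spots. The sign of *Tbx4* turned to 0.034 without normalization, that of *Hoxa10* to -0.12 and that of *Hoxb3* to -0.095 in the authors' values. Leaving out 1 array moved *Tbx4* between -0.075 and 0.044 and *Hoxd9* between -0.35 and 0.023. Over all probes, 546 were called, and 94 with normexp, 108 with the median signal, 283 with scaling to the 75th percentile, 27 without normalization, 318, 303 and 372 with the filters at all 8 arrays, at 1 array and none, 106 in the authors' values, 0 with the block and 2 to 692 with 1 array left out (2 without Co replicate 3). The share of calls higher in Pg mice was 19.4%, and 70.2%, 69.4%, 48.4%, 74.1% and 56.6% with normexp, the median signal, scaling to the 75th percentile, no normalization and the authors' values. With normexp, the median signal or the authors' values, the log2 fold changes of *Hoxc6* (0.13, 0.09 and 0.09) and *Hoxd4* (-0.15, -0.12 and -0.14) were also smaller. Without normalization, *Pitx1* was larger, at 0.46, and *Hoxa9* (-0.10), *Hoxa11* (-0.05), *Hoxa13* (-0.17), *Hoxd9* (-0.05), *Hoxa2* (-0.29), *Hoxb5* (-0.16) and *Hoxd4* (-0.12) were smaller in size. The causes were not tested. Dim genes near the background carry the least certain values.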
